A study of Homo sapiens with 8 samples.

Results

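The MYC, MAX and MXD network is described here by 9 genes, *MYC*, *MYCL*, *MAX*, *MXD1*, *MXD3*, *MXD4*, *MXI1*, *MNT* and *MGA*, which were chosen by gene symbol and make up 9 of the 13842 genes measured. RNA-seq was performed on 2 human breast lines, MCF10A, a normal breast epithelial line, and DCIS.COM, a line of ductal carcinoma in situ. Cells of each line had been stably transduced with pLOC-*MALINC1*, a vector that expresses the long non-coding RNA (lncRNA) *MALINC1*, or with pLOC-empty as control, and every population had been selected with blasticidin. The 4 groups thus formed hold 2 libraries each, 8 in all. The labels do not state that the libraries of a group came from separate cultures or transductions. The p-values therefore measure the spread between these samples, which may be technical. Within a line, an effect of *MALINC1* and another difference between the selected populations cannot be told apart. The word response below names the difference between the vectors. MCF10A was grown in medium with horse serum, epidermal growth factor, hydrocortisone, insulin and cholera toxin and DCIS.COM in medium with horse serum alone, so line and medium cannot be told apart in any comparison between the lines.

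MYC proteins bind DNA as dimers with MAX, preferentially at the E-box, and raise the transcription of genes for ribosome production, metabolism and cell division. The MXD proteins MXD1, MXI1 (also called MXD2), MXD3 and MXD4, together with MNT and MGA, compete for MAX and bind the same element as repressors, most of them through the SIN3 and histone deacetylase corepressors. MAX is the shared partner, whereas MLX serves as partner of MLXIP and can also bind MXD1, MXD4 and MNT. MYC is a frequent oncogene of breast carcinomas and its RNA and protein are short-lived, so its level follows growth signals closely.

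The E-box on which these proteins meet was searched for in the promoters of the measured genes, because it is the element that MYC activates and MXD proteins repress. The motif CACGTG reads the same on both strands, and promoters were taken as the 300 bases from 250 before to 50 after each RefSeq start in GRCh38.p14. Of 10704 genes with such a sequence, 1332 (12.4%) held the motif in at least 1 promoter. Of the 9 members, 8 had a sequence, and *MXD4* and *MNT* held the motif. The partner gene *MLX* held it as well. Of the 74 genes with a sequence in 3 lists of textbook MYC targets described further on, 36 (48.6%) held it. Of a list of MYC-repressed targets 0 of 8 genes held it, too few genes to set apart from the 12.4% of all genes. These shares describe the make-up of the lists and not the RNA levels. The stretches around the motif are shown for *MXD4*, *MNT* and *MLX* and for *HK2*, *LYAR* and *ODC1*, which had the largest rises with *MALINC1* in MCF10A among the target genes with the motif. Each runs 5′ to 3′ on the strand of its gene, with up to 47 bases on each side of the first motif and every motif in capitals.
MXD4 (chr4:2262295-2262359, minus strand): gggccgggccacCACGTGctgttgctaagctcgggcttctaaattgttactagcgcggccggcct
MNT (chr17:2401201-2401300, minus strand): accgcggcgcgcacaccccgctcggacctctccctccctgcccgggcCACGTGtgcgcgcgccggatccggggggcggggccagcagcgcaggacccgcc
MLX (chr17:42567003-42567102, plus strand): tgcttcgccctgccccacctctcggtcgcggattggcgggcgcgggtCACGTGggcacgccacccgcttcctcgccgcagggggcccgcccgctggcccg
HK2 (chr2:74834929-74835028, plus strand): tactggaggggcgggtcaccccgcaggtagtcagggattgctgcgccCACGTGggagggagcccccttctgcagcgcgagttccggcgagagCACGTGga
LYAR (chr4:4290033-4290132, minus strand): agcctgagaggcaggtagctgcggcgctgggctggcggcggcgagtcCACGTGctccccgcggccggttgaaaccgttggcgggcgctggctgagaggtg
ODC1 (chr2:10447989-10448088, minus strand): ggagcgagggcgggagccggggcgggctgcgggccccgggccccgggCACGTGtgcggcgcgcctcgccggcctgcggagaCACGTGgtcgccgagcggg
The first base of the motif lies 238 bases before the start of *MXD4*, 193 before that of *MNT* and 50 before that of *MLX*. In *HK2* and *ODC1* a pair of motifs is present, the first of them 194 and 29 bases before the start, and in *LYAR* the single motif lies 64 bases before it. Over all genes with a promoter sequence, the median log2 fold change with *MALINC1* in MCF10A was 0.029 for genes with the motif and 0.000 for genes without it, and in DCIS.COM 0.023 and 0.0062, so that the motif alone separated the genes by little in either line. A match of these letters is a description of the sequence and not a binding site.

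Reads counted on genes ranged from 20604377 to 37550457 per library, and levels are given as CPM, read counts scaled by library size, computed from the deposited log2 CPM. *RN7SL1* and *RN7SL2*, RNA components of the signal recognition particle, took 8.22% to 15.7% of the reads. *MALINC1* had 29 and 34 reads (1.0 and 1.51 CPM) in MCF10A with pLOC-empty and 13.2 and 11.8 CPM with pLOC-*MALINC1*. In DCIS.COM it had 1.35 and 1.15 CPM with pLOC-empty and 24.5 and 19.2 with pLOC-*MALINC1*, so the vector named in the labels holds in all 8 libraries. *MALINC1* was thus higher by log2 3.27 in MCF10A and 4.04 in DCIS.COM, with a standard error of 0.19 for each (adjusted p = 3.97e-08 and 6.93e-09). The epithelial markers *CDH1*, *EPCAM*, *KRT8* and *KRT18* summed to 1962 to 2443 CPM in MCF10A and 3804 to 3967 in DCIS.COM, and 6 basal markers to 27570 to 37640 and 3981 to 4711. Of the fibroblast, leukocyte and endothelial markers 1 of 6, 1 of 5 and 1 of 3 were in the table, with at most 15.9, 4.27 and 7.21 CPM in any library, and their part in the results was not tested. In such bulk samples fewer cells that express a gene and less RNA per cell cannot be told apart.

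Each comparison was made with limma on the log2 CPM, and a gene was called when its Benjamini-Hochberg adjusted p over all 13842 genes was below 0.01. With *MALINC1* in MCF10A, *MYC*, *MAX* and *MXD1* rose and *MXD3*, *MXD4* and *MGA* fell, so that 3 of 9 members were called higher and 3 lower, where 21.5% of all genes were called higher and 18.1% lower. In DCIS.COM, *MYC* and *MAX* rose and *MXD1*, *MXD4* and *MXI1* fell, 2 of 9 higher and 3 lower, against 16.4% and 16.7% of all genes. *MYC* and *MXD3* changed by more than 2-fold in MCF10A, as did 5.50% of all genes, and none of the members did in DCIS.COM, where 4.53% of all genes did. The median log2 fold change over the 9 members was -0.051 in MCF10A and -0.28 in DCIS.COM, beside 0.000 and 0.009 over all genes.

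**Figure D1:**
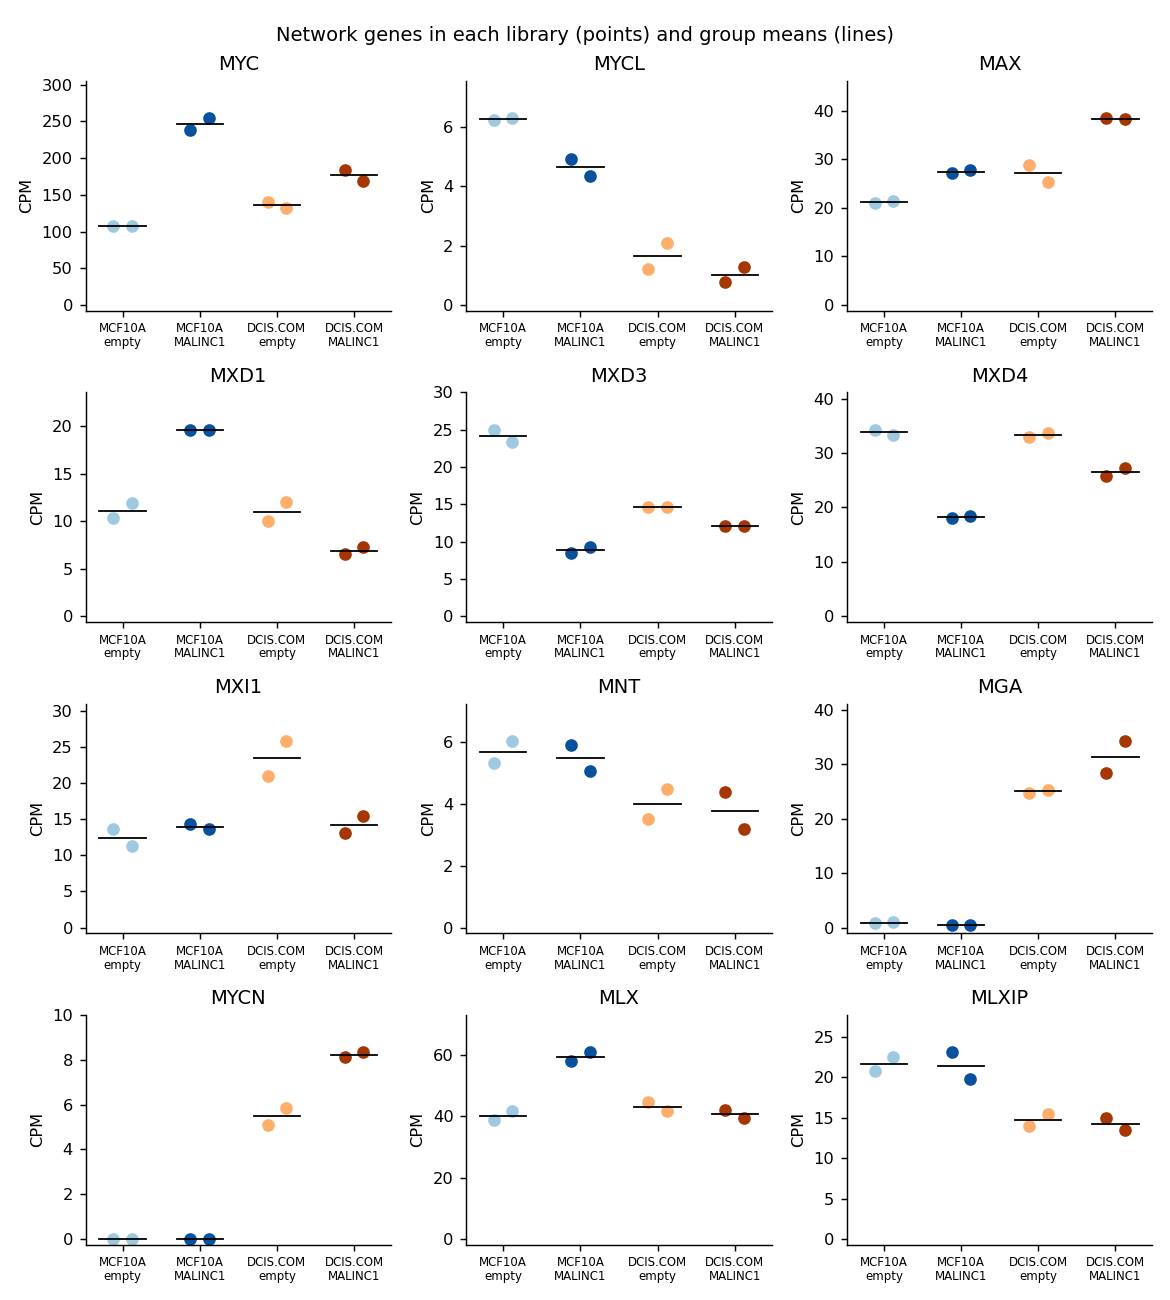
CPM of the 9 network members and of *MYCN*, *MLX* and *MLXIP* in the 8 libraries, with the group on the horizontal axis, 2 points per group for its libraries and a line at their mean, and each vertical axis from 0. *MYC* is highest in MCF10A with pLOC-*MALINC1* (238 and 254 CPM), *MGA* stays below 1 CPM in the 4 MCF10A libraries, and *MYCN* has no read there.

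*MYC* (GRCh37, chromosome 8, 128747680 to 128755197, plus strand), the central activator of the network, had 107.6 CPM in both MCF10A libraries with pLOC-empty and 238 and 254 CPM with pLOC-*MALINC1*. In DCIS.COM it had 140.0 and 133 CPM with pLOC-empty and 183 and 170 with pLOC-*MALINC1*. The order of the groups was MCF10A with pLOC-empty, DCIS.COM with pLOC-empty, DCIS.COM with pLOC-*MALINC1* and MCF10A with pLOC-*MALINC1*, and no 2 neighbours in it overlapped. With *MALINC1*, *MYC* was 2.29-fold higher in MCF10A (log2 1.19, adjusted p = 9.81e-10) and 1.29-fold higher in DCIS.COM (log2 0.37, adjusted p = 3.11e-05). The standard error was 0.045 on the log2 scale. The rise in DCIS.COM was smaller by 0.82 on the log2 scale (adjusted p = 5.78e-07). DCIS.COM thus had more *MYC* than MCF10A with the empty vector (log2 0.34, adjusted p = 1.46e-05) and less with *MALINC1* (log2 -0.48, adjusted p = 5.80e-07). *PVT1*, a lncRNA gene next to *MYC* on the same strand, had 8.28 and 9.25 CPM in MCF10A with pLOC-empty and 9.89 and 10.1 with pLOC-*MALINC1*, and 15.0 and 14.5 against 16.5 and 14.5 in DCIS.COM. Its response was not called in either line (log2 0.19 and 0.07, standard error 0.093, adjusted p = 0.101 and 0.559). It was higher in DCIS.COM than in MCF10A, by log2 0.75 with the empty vector and 0.63 with *MALINC1* (adjusted p = 7.90e-06 and 4.11e-05).

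*MYCL* (chromosome 1, 40361100 to 40367928, minus strand), a paralog of *MYC* with the same partner, was a low transcript. It had 6.24 and 6.29 CPM in MCF10A with pLOC-empty and 4.93 and 4.34 with pLOC-*MALINC1*. The DCIS.COM libraries had 1.21 and 2.10 CPM with pLOC-empty and 0.757 and 1.27 with pLOC-*MALINC1*, which is 26 to 44 reads per library. Both MCF10A groups lay above both DCIS.COM groups, while the vectors overlapped within DCIS.COM. The response to *MALINC1* was not called in MCF10A (log2 -0.43, standard error 0.26, adjusted p = 0.183) or in DCIS.COM (log2 -0.66, standard error 0.26, adjusted p = 0.0534). With 1 library left out the latter value ran from -0.28 without DCIS.COM pLOC-empty replicate 2 to -1.04 without replicate 1 of that group. DCIS.COM had less *MYCL* than MCF10A, with a log2 fold change of -1.92 under the empty vector and -2.16 under *MALINC1* (adjusted p = 1.69e-05 and 6.17e-06).

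*MYCN*, the remaining *MYC* paralog and not one of the 9 members, showed the opposite order. No read was counted on it in any MCF10A library, whereas DCIS.COM had 5.08 and 5.87 CPM with pLOC-empty and 8.13 and 8.34 with pLOC-*MALINC1*. Set against a floor of 3 reads per library, *MYCN* was at least 46.4-fold higher in DCIS.COM than in MCF10A with the empty vector and at least 83.6-fold higher with *MALINC1*. Within DCIS.COM the groups did not overlap, and the difference was not called (log2 0.58, standard error 0.23, adjusted p = 0.0553). With pseudocounts of 0.5 and 1 CPM, with limma-voom on reads or without the trend of variance with level in the limma fit it was called, at adjusted p = 0.00443, 0.00117, 0.000507 and 0.00232. The MCF10A libraries, which have no read of it, add little or no spread to these shared fits. The standard error was 0.071 without the trend, so these calls are weaker than their p-values look.

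*MAX* (chromosome 14, 65472892 to 65569413, minus strand), the partner that MYC, MXD and *MNT* proteins share, rose in both lines. It had 20.9 and 21.4 CPM in MCF10A with pLOC-empty and 27.1 and 27.7 with pLOC-*MALINC1*, and 28.9 and 25.4 against 38.5 and 38.2 CPM in DCIS.COM. The vectors did not overlap within either line, and MCF10A with *MALINC1* lay within the range of DCIS.COM without it. The rise was log2 0.37 in MCF10A and log2 0.50 in DCIS.COM, with a standard error of 0.064 for each (adjusted p = 0.000382 and 4.62e-05). These differed by log2 0.13 (standard error 0.090, adjusted p = 0.271). *MAX* was higher in DCIS.COM under both vectors, by log2 0.36 with pLOC-empty and 0.48 with pLOC-*MALINC1* (adjusted p = 0.000213 and 1.56e-05).

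*MXD1* (chromosome 2, 70124820 to 70170077, plus strand), a MAX-binding repressor known from differentiating epithelium, moved in opposite directions. It had 10.3 and 11.9 CPM in MCF10A with pLOC-empty and 19.6 in both libraries with pLOC-*MALINC1*. In DCIS.COM it had 10.03 and 11.98 CPM with pLOC-empty and 6.53 and 7.30 with pLOC-*MALINC1*. The empty-vector groups of the lines overlapped, and the *MALINC1* groups lay above and below them. With *MALINC1* it rose by log2 0.82 in MCF10A and had a log2 fold change of -0.66 in DCIS.COM, with a standard error of 0.11 for both (adjusted p = 4.76e-05 and 0.000323). The call in DCIS.COM was lost when that line was fitted alone (adjusted p = 0.0188). The difference between the responses was -1.48 on the log2 scale (adjusted p = 6.87e-06).

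*MXI1* (chromosome 10, 111967363 to 112047123, plus strand), a repressor of the same family, differed by line. It had 13.6 and 11.3 CPM in MCF10A with pLOC-empty and 14.3 and 13.6 with pLOC-*MALINC1*, and the vectors gave no change past the threshold there (log2 0.17, standard error 0.12, adjusted p = 0.246). DCIS.COM had 21.0 and 25.8 CPM with pLOC-empty and 13.02 and 15.4 with pLOC-*MALINC1*. DCIS.COM with the empty vector stood above the other 3 groups, whose values lay between 11.3 and 15.4 CPM. *MXI1* fell by 0.71 on the log2 scale with *MALINC1* in DCIS.COM (standard error 0.12, adjusted p = 0.000349). Without the trend or with the line fitted alone that p was 0.0123 and 0.0183. The responses differed by -0.88 on the log2 scale (adjusted p = 0.000874), at adjusted p = 0.0176 without the trend.

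*MXD3* (chromosome 5, 176728462 to 176739758, minus strand), a repressor known from proliferating cells, had the largest fall with *MALINC1* of the 9 members. It had 25.0 and 23.3 CPM in MCF10A with pLOC-empty and 8.47 and 9.29 with pLOC-*MALINC1*. DCIS.COM had 14.7 CPM in both libraries with pLOC-empty and 12.1 in both with pLOC-*MALINC1*. The groups did not overlap within either line. In MCF10A it fell 2.71-fold (log2 fold change -1.44, standard error 0.079, adjusted p = 2.54e-08). A log2 fold change of -0.28 (standard error 0.079) in DCIS.COM did not pass the threshold (adjusted p = 0.0124), although it did with limma-voom on reads (adjusted p = 0.00987) or a pseudocount of 1 CPM (adjusted p = 0.00959). The responses differed by 1.16 on the log2 scale (adjusted p = 3.60e-06).

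*MXD4* (chromosome 4, 2249159 to 2263836, minus strand), a further repressor of the MXD family, fell in both lines. It had 34.3 and 33.4 CPM in MCF10A with pLOC-empty and 18.1 and 18.4 with pLOC-*MALINC1*, and 32.9 and 33.7 against 25.8 and 27.2 CPM in DCIS.COM. The lines overlapped with the empty vector, and each *MALINC1* group lay below its control. The log2 fold change with *MALINC1* was -0.89 in MCF10A and -0.33 in DCIS.COM, with a standard error of 0.055 for each (adjusted p = 6.98e-08 and 0.000349). The responses differed by 0.56 on the log2 scale (adjusted p = 8.33e-05).

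*MNT* (chromosome 17, 2287367 to 2304398, minus strand), a broadly expressed repressor that holds the E-box shown above, had the most overlap. It ranged from 5.06 to 6.02 CPM in the 4 MCF10A libraries and from 3.19 to 4.49 in the 4 DCIS.COM libraries, and within each line the vectors overlapped. The log2 difference between the vectors was -0.05 in MCF10A and -0.08 in DCIS.COM, with a standard error of 0.17 (adjusted p = 0.829 and 0.729). Between the lines the libraries did not overlap, with log2 -0.51 with the empty vector and -0.54 with *MALINC1* (standard error 0.17), and neither passed the threshold (adjusted p = 0.0178 and 0.0130). The latter did when DCIS.COM pLOC-*MALINC1* replicate 1 was left out (log2 -0.76, adjusted p = 0.00455), and both did with quantile normalization (adjusted p = 0.00429 and 0.00473). With 1 library left out, the values ran from -0.33 to -0.68 and from -0.32 to -0.76.

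*MGA* (chromosome 15, 41913332 to 42065279, plus strand), a very large MAX-binding protein that works in a polycomb complex, separated the lines most. It had 0.862 and 0.974 CPM in MCF10A with pLOC-empty and 0.557 and 0.567 with pLOC-*MALINC1*, which is 15 to 25 reads per library. The DCIS.COM libraries held 24.8 and 25.2 CPM with pLOC-empty and 28.3 and 34.2 with pLOC-*MALINC1*. Each DCIS.COM library lay above each MCF10A library by more than an order of magnitude. The log2 fold change of DCIS.COM over MCF10A was 4.66 with the empty vector and 5.62 with *MALINC1* (standard error 0.13, adjusted p = 5.76e-12 and 1.24e-12). *MGA* was lower with *MALINC1* in MCF10A (log2 -0.64, standard error 0.13, adjusted p = 0.00166). That call was lost with limma-voom on reads (adjusted p = 0.181), with a pseudocount of 1 CPM (adjusted p = 0.0237) and with the line fitted alone (adjusted p = 0.0170). It was also lost without MCF10A pLOC-empty replicate 2 (log2 -0.56). In DCIS.COM the log2 fold change was 0.32 (adjusted p = 0.0737), which ran from 0.18 without DCIS.COM pLOC-*MALINC1* replicate 2 to 0.45 without replicate 1 of that group and passed with limma-voom on reads (adjusted p = 0.00307). The responses differed by 0.96 on the log2 scale (adjusted p = 0.00126), and not past the threshold without DCIS.COM pLOC-*MALINC1* replicate 2 (log2 0.82, adjusted p = 0.0130) or with limma-voom (adjusted p = 0.0624).

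The genes around *MGA* were looked at after its values had been seen. Within 500 kb of it, 17 other genes were tested, of which 9 were called higher and 6 lower in DCIS.COM than in MCF10A with the empty vector (52.9% and 35.3%, beside 37.9% and 36.0% of all genes), with log2 fold changes from -2.28 to 3.72 and a median of 0.28. The next genes downstream, *MAPKBP1*, *JMJD7-PLA2G4B* and *SPTBN5*, were higher by log2 1.67, 2.30 and 3.72 (adjusted p = 4.77e-11, 7.03e-07 and 8.52e-10). On the other side the nearest genes, *TYRO3* and *RPAP1*, stood at log2 -0.80 and 0.88 (adjusted p = 1.60e-08 and 2.98e-08). *MGA* had the largest difference of the 18 genes, beside neighbours that differed in both directions. It was chosen for the width of its range, so its rank among them is partly set by that choice. *SPTBN5* and *JMJD7-PLA2G4B* had 0.53 and 0.79 CPM in MCF10A with pLOC-empty. *ITPKA*, the gene at -2.28, had 0.54 CPM in DCIS.COM with pLOC-empty. These fold changes thus rest on levels near the floor in 1 line.

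**Figure D2:**
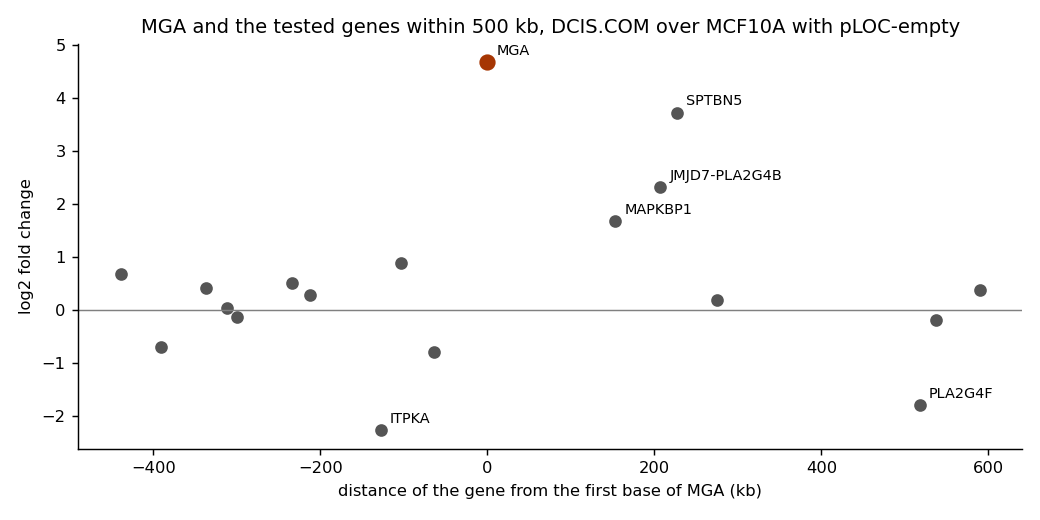
Log2 fold change of DCIS.COM over MCF10A with pLOC-empty for *MGA* (orange) and the 17 tested genes within 500 kb (grey), against the distance of the gene's lowest coordinate from the first base of *MGA* in kb. *MGA* stands highest at 4.66, followed by *SPTBN5* at 3.72, and the genes on the other side lie between -2.28 and 0.88.

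The direct test of the difference between the responses separated *MYC*, *MXD1* and *MXI1*, whose fold change was lower in DCIS.COM, from *MXD3*, *MXD4* and *MGA*, whose fold change was higher there. This gave 3 of 9 members in each direction, against 15.6% of all genes called higher and 20.3% lower, and *MXD1* and *MXD3* passed 2-fold, as did 9.20% of all genes. When *RN7SL1* and *RN7SL2* reads were left out of the scaling, the calls over all genes were 2814 higher and 2267 lower instead of 2162 and 2810. Here and below, this setting scales each library by the sum of its other reads. It thus also drops the normalization factors of the deposited values, which put library sizes at 0.945 to 1.11 times the reads on genes. The parts of the 2 changes cannot be told apart. The 3 members that were not called were *MYCL*, *MAX* and *MNT*, with differences of log2 -0.23, 0.13 and -0.03 (standard errors 0.37, 0.090 and 0.25).

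**Figure D3:**
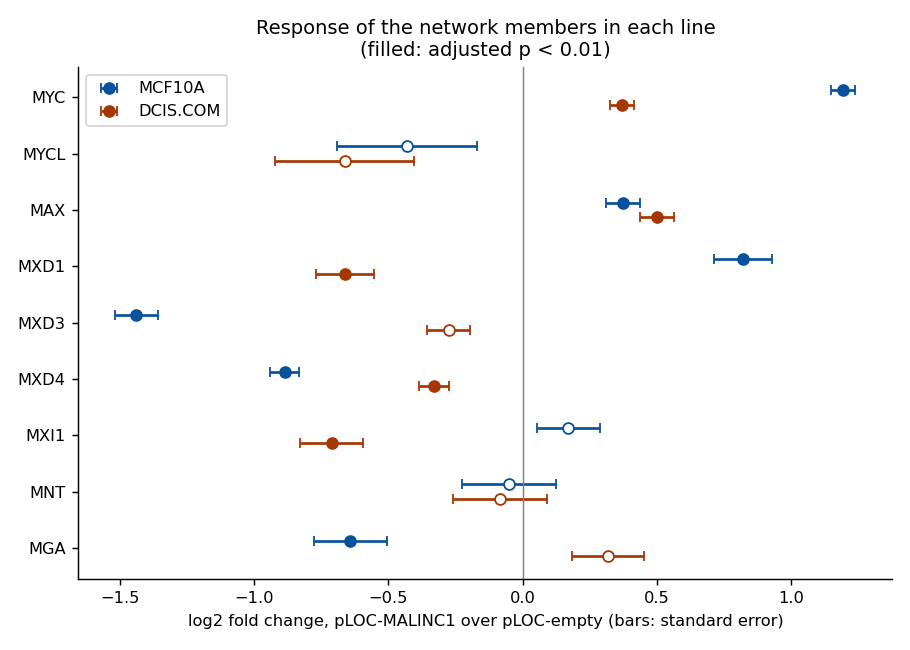
Log2 fold change of pLOC-*MALINC1* over pLOC-empty for each member in MCF10A (blue) and DCIS.COM (brown), with bars for the standard error and filled points for an adjusted p below 0.01. *MYC* reaches 1.19 in MCF10A against 0.37 in DCIS.COM, and *MXD1* lies at 0.82 and -0.66 on opposite sides of 0.

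In the comparison of the lines with the empty vector, *MYC*, *MAX*, *MXI1* and *MGA* were higher in DCIS.COM and *MYCL* and *MXD3* lower, 4 and 2 of 9 against 37.9% and 36.0% of all genes. *MXD3* stood at log2 -0.72 (adjusted p = 2.46e-06) and *MXI1* at 0.91 (adjusted p = 1.22e-05), whereas *MXD1* and *MXD4* stood at -0.01 and -0.02 (adjusted p = 0.916 and 0.716). With *MALINC1* in both lines, *MAX*, *MXD3*, *MXD4* and *MGA* were higher and *MYC*, *MYCL* and *MXD1* lower, 4 and 3 of 9 against 35.7% and 37.2%. *MXD1* then stood at log2 -1.50, *MXD3* at 0.45 and *MXD4* at 0.53 (adjusted p = 4.54e-08, 0.000191 and 1.35e-06), and *MXI1* at 0.02 (adjusted p = 0.858). *MYCL* and *MGA* differed by over 2-fold with either vector and *MXD1* with *MALINC1*, as did 28.6% of all genes with the empty vector and 26.6% with *MALINC1*. These comparisons share libraries with those within the lines. Leaving *RN7SL1*, *RN7SL2* and the normalization factors out of the scaling moved the median of all genes by log2 0.104 with the empty vector and 0.179 with *MALINC1*. It turned 4948 higher and 5154 lower calls with *MALINC1* into 6314 and 3902, while no call on a member changed direction. The median moved by -0.012 and 0.022 with quantile normalization and by -0.024 and -0.002 with median-of-ratios scaling.

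Levels of different genes can be set side by side only per length, as CPM per kb (RPKM) of the canonical GENCODE transcript. *MYC* had the highest RPKM of the members in each group, with 28.9 under pLOC-empty and 66.2 under pLOC-*MALINC1* in MCF10A, and 36.6 and 47.4 in DCIS.COM. In MCF10A with pLOC-empty, *MXD3* (22.7), *MAX* (10.5) and *MXD4* (8.74) came next, and with pLOC-*MALINC1* *MAX* (13.7) was ahead of *MXD3* (8.32) and *MXD4* (4.72). In DCIS.COM with pLOC-empty, *MXD3* and *MAX* had nearly equal RPKM (13.75 and 13.51, SD 0.024 and 1.24), and with pLOC-*MALINC1* *MAX* (19.1) was ahead of *MXD3* (11.3). *MGA* was last in MCF10A, with 0.075 and 0.046 RPKM, and *MYCL* last in DCIS.COM, with 0.47 and 0.29. With the length of all annotated exons in place of the canonical transcript, *MYC* stayed first (17.6, 40.3, 22.3 and 28.9 RPKM in the same order), while *MXD3*, whose canonical transcript of 1067 nt is far shorter than its 4743 nt of exons, had 1.87 RPKM against 4.38 of *MAX* in MCF10A with pLOC-*MALINC1* and 3.09 against 4.34 in DCIS.COM with pLOC-empty. The order among *MXD3*, *MAX* and *MXD4* therefore depends on the length taken.

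The *MLX* branch of the network shares repressors with *MAX*. *MLX* had 38.8 and 41.6 CPM in MCF10A with pLOC-empty and 57.9 and 60.8 with pLOC-*MALINC1*, and between 39.4 and 44.5 CPM in the 4 DCIS.COM libraries. It rose in MCF10A (log2 0.56, standard error 0.055, adjusted p = 4.08e-06), not past the threshold in DCIS.COM (log2 -0.08, adjusted p = 0.255), and the responses differed by -0.64 (adjusted p = 2.80e-05). *MLXIP*, its glucose-sensing partner, ranged from 19.8 to 23.1 CPM in MCF10A and from 13.5 to 15.4 in DCIS.COM, where it was lower with the empty vector (log2 fold change -0.56, adjusted p = 0.000105). It had log2 differences between the vectors of -0.02 and -0.05 (standard error 0.092). Of the classic targets of this branch, *ARRDC4* rose in both lines (log2 0.45 in each, standard error 0.056, adjusted p = 2.62e-05 and 3.47e-05), with 24.7 and 25.0 against 35.8 and 32.5 CPM in MCF10A and 44.8 and 48.1 against 63.1 and 63.8 in DCIS.COM. *TXNIP*, an inhibitor of glucose uptake, had 146 and 145 against 129 and 124 CPM in MCF10A and fell there (log2 -0.21, adjusted p = 0.000449, and 0.0142 without the trend), while it had 198 and 209 against 218 and 218 CPM in DCIS.COM (log2 0.10, adjusted p = 0.0425).

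Genes of the MYC pathway were then counted in lists of textbook members. Of 155 genes tested in these lists, 91 were called higher and 20 lower with *MALINC1* in MCF10A (58.7% and 12.9%, beside 21.5% and 18.1% of all genes), and 70 higher and 19 lower in DCIS.COM (45.2% and 12.3%, beside 16.4% and 16.7%). The share called lower was thus below that of all genes in both lines. Between the lines, 67 of the 155 were called higher and 50 lower with *MALINC1*, and 85 and 31 with the empty vector. With *RN7SL1*, *RN7SL2* and the normalization factors left out of the scaling, these counts were 90 and 30, and 100 and 22. They were 78 and 39, and 91 and 24, with quantile normalization. With median-of-ratios scaling they were 67 and 50, and 81 and 34. For the difference of the responses, 23 higher and 65 lower became 31 and 56 without *RN7SL1*, *RN7SL2* and the factors. They became 31 and 55 with quantile normalization and 23 and 64 with median-of-ratios scaling. Between the lines, the split of the lists by direction thus moved most in the setting that drops the normalization factors. It moved little with median-of-ratios scaling, and higher calls outnumbered lower ones between the lines in each of these settings. In the comparisons of the lines the counts of each list stand beside 37.9% of all genes called higher and 36.0% lower with the empty vector and 35.7% and 37.2% with *MALINC1*, and for the difference of the responses beside 15.6% and 20.3%.

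Of 39 MYC targets of ribosome biogenesis, 38 rose with *MALINC1* in MCF10A and 0 fell, with a median log2 fold change of 0.67. The share called higher was 97.4%, beside 21.5% of all genes. *LYAR*, a nucleolar protein, went from 32.4 ± 1.9 to 73.2 ± 2.2 CPM (mean ± SD, n = 2). *NOP16* went from 22.7 ± 0.39 to 50.1 ± 2.4 and *POLR1B*, a subunit of RNA polymerase I, from 40.7 ± 2.2 to 83.1 ± 0.91. Their log2 fold changes were 1.18, 1.14 and 1.03 (adjusted p = 2.21e-09, 6.30e-08 and 7.49e-09). *UBTF*, a transcription factor of the ribosomal RNA genes, was the exception at -0.04. In DCIS.COM 31 of these genes rose, 1 fell and 7 were not called, with a median of 0.29. The shares were 79.5% higher and 2.56% lower, beside 16.4% and 16.7% of all genes. *UTP20* led there (86.9 ± 0.97 to 209.8 ± 8.1 CPM, log2 1.27, adjusted p = 5.08e-10), followed by *RRP12* (log2 0.83) and *MYBBP1A* (log2 0.64). The one fall was that of *NPM1*, the nucleolar chaperone nucleophosmin (log2 -0.23), which had risen by log2 0.51 in MCF10A. In the direct test of the difference, 27 of the 39 had a lower fold change in DCIS.COM and 2, *UTP20* and *UBTF*, a higher one, with a median difference of -0.39 beside -0.007 over all genes. With the empty vector 27 of the 39 were higher in DCIS.COM than in MCF10A and 3 lower, led by *EXOSC5* (log2 1.68), *MRTO4* (log2 1.25) and *NPM1* (log2 1.25). With *MALINC1* the count was 14 higher and 11 lower, from *UTP20* at log2 1.67 and *EXOSC5* at 1.37 to *DDX21*, a nucleolar RNA helicase, at -0.90.

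**Figure D4:**
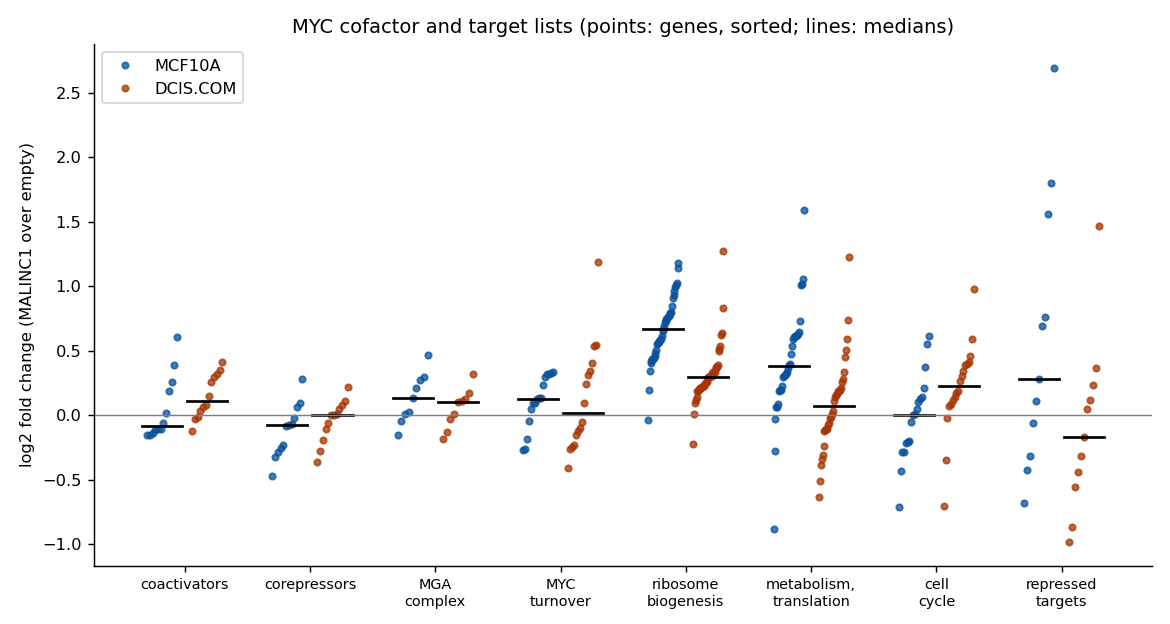
Log2 fold change of pLOC-*MALINC1* over pLOC-empty for the genes of 8 *MYC* pathway lists, sorted within each list, in MCF10A (blue) and DCIS.COM (brown), with a line at the median. The ribosome biogenesis targets have medians of 0.67 and 0.29, whereas the corepressors lie around 0 in both lines (-0.08 and 0.0005).

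The targets in metabolism and translation were split by line. In MCF10A 25 of 32 rose and 2 fell (78.1% and 6.25%, beside 21.5% and 18.1% of all genes), with a median log2 fold change of 0.38. *HK2*, the hexokinase of the first step of glycolysis, went from 26.7 ± 1.2 to 80.5 ± 1.6 CPM (log2 1.59, adjusted p = 2.35e-11). *ODC1*, the rate-limiting enzyme of polyamine synthesis, went from 77.8 ± 1.3 to 161 ± 3.4 CPM (log2 1.05, adjusted p = 4.94e-10), and *SHMT1*, an enzyme of one-carbon metabolism, fell from 78.9 ± 1.2 to 42.9 ± 1.9 CPM (log2 -0.88, adjusted p = 6.94e-09). In DCIS.COM 14 rose and 6 fell, with a median of 0.074. These are 43.8% and 18.8%, beside 16.4% and 16.7% of all genes, the latter shares being near each other. *ODC1* and *CAD*, an enzyme of pyrimidine synthesis, rose there (log2 0.74 and 0.59), and *LDHA*, lactate dehydrogenase, fell from 1848 ± 26 to 1193 ± 11 CPM (log2 -0.63, adjusted p = 1.06e-07). The other genes that fell in DCIS.COM included *TFRC* (log2 -0.51), *ENO1* (log2 -0.39) and *PKM* (log2 -0.34), the former a transferrin receptor and the latter enzymes of glycolysis. For 23 of the 32 the fold change was lower in DCIS.COM and for 2 higher. Between the lines with the empty vector, *SLC29A2*, *HK2* and *ODC1* were higher in DCIS.COM by log2 4.15, 2.84 and 1.87, and 24 of the 32 were called higher and 2 lower. With *MALINC1*, 17 were higher and 10 lower, with *SLC29A2* at log2 3.33, *ODC1* at 1.56 and *LDHA* at -1.54.

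Cell cycle targets moved both ways. In MCF10A 5 of 18 rose and 6 fell (27.8% and 33.3%, beside 21.5% and 18.1% of all genes), with a median log2 fold change of 0.004. *CDC25A*, a phosphatase that activates cyclin-dependent kinases, and *CDCA7* rose by log2 0.61 and 0.55 (adjusted p = 2.13e-05 and 4.73e-05), and *E2F1*, a transcription factor of S phase genes, fell from 53.0 ± 2.7 to 32.4 ± 0.50 CPM (log2 -0.71, adjusted p = 5.59e-07). In DCIS.COM 10 rose and 2 fell (55.6% and 11.1%, beside 16.4% and 16.7% of all genes), with a median of 0.23. *E2F2* went from 12.4 ± 1.3 to 24.4 ± 0.33 CPM (log2 0.98, adjusted p = 8.68e-07), and *CCNB1*, the mitotic cyclin B1, fell by 0.70 on the log2 scale (adjusted p = 7.92e-07). *CCND2*, cyclin D2, had no read in MCF10A with either vector and 82.0 ± 1.7 CPM in DCIS.COM with pLOC-empty, at least 694-fold more than the floor of 3 reads per library. Its rise with *MALINC1* in DCIS.COM (log2 0.59, adjusted p = 0.00578) was lost without any one of the 4 DCIS.COM libraries (log2 0.57 to 0.61, adjusted p = 0.0370 to 0.0604) and with the replicate number as a block in the fit (adjusted p = 0.0128). Without *MALINC1*, *E2F2* and *E2F1* were lower in DCIS.COM (log2 fold changes -1.75 and -1.71). With *MALINC1*, *MCM2*, a subunit of the replicative helicase, stood at log2 1.21 and *CCNB1* at -1.04.

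Of the list of MYC-repressed targets, 11 were tested, and 6 rose and 2 fell in MCF10A, where *MYC* also rose. These are 54.5% and 18.2%, beside 21.5% and 18.1% of all genes, so the share called lower was near that of all genes. *THBS1*, the antiangiogenic thrombospondin 1, went from 788 ± 11 to 2323 ± 34 CPM (log2 1.56, adjusted p = 1.25e-10), and *NDRG1* and *CDKN1A*, the inhibitor p21, rose by log2 0.76 and 0.69 (adjusted p = 4.82e-07 and 6.94e-09). In DCIS.COM 1 rose and 5 fell (9.09% and 45.5%, beside 16.4% and 16.7% of all genes). *THBS1* fell there from 3517 ± 206 to 1779 ± 73 CPM (log2 -0.98, adjusted p = 7.25e-09), and *CLU*, clusterin, rose from 7.43 ± 0.44 to 20.7 ± 1.8 CPM (log2 1.47, adjusted p = 6.78e-07). *GAS1*, a growth arrest gene, fell in DCIS.COM (log2 -0.87, adjusted p = 0.00170), and the call was lost without DCIS.COM pLOC-empty replicate 1 or either pLOC-*MALINC1* replicate (log2 -0.77 to -0.92, adjusted p = 0.0104 to 0.0207). Between the lines with the empty vector, *CEBPA* and *NDRG2* were at least 72.9-fold and 62.1-fold higher in DCIS.COM against the same floor.

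*MYC* works with coactivators and the MXD proteins with corepressors. Of 12 coactivators 4 rose and 1 fell in MCF10A (33.3% and 8.33%, beside 21.5% and 18.1% of all genes) and 5 rose and 0 fell in DCIS.COM (41.7%, beside 16.4%), and the median log2 fold changes were -0.084 and 0.11. *RUVBL1*, a helicase of chromatin remodelling complexes, rose in MCF10A from 58.0 ± 0.27 to 88.2 ± 5.4 CPM (log2 0.60, adjusted p = 1.88e-07), and *HCFC1* and *TRRAP* rose in DCIS.COM by log2 0.41 and 0.35 (adjusted p = 0.000123 and 0.000226). *KAT2A*, an acetyltransferase recruited by MYC, rose by log2 0.39 and 0.32. Its call in MCF10A was lost without pLOC-empty replicate 2 or pLOC-*MALINC1* replicate 2 of that line (log2 0.27 and 0.38, adjusted p = 0.0148 and 0.0125), and its call in DCIS.COM without pLOC-empty replicate 2 or pLOC-*MALINC1* replicate 1 (log2 0.25 in both, adjusted p = 0.0589 and 0.0594). *WDR5* rose by log2 0.26 in MCF10A and 0.30 in DCIS.COM (adjusted p = 0.00153 and 0.000711). Its call in MCF10A was lost without pLOC-empty replicate 1 or pLOC-*MALINC1* replicate 2 of that line (log2 0.24 and 0.19). Of 12 corepressors 1 rose and 5 fell in MCF10A (8.33% and 41.7%). In DCIS.COM 1 rose and 2 fell (8.33% and 16.7%, the latter near the share of all genes called lower), led by *SUDS3* of the SIN3 complex (log2 -0.37, adjusted p = 1.82e-05). *RBBP4*, a histone chaperone of the same complex, fell in MCF10A by 0.28 on the log2 scale. *SIN3A* had a log2 fold change of -0.26 there (adjusted p = 0.00054). The calls of *SAP30* in MCF10A (log2 -0.32) and of *SIN3A* and *SIN3B* in DCIS.COM (log2 -0.19 and 0.22) depended on single libraries and were lost in 4, 3 and 8 of the 8 fits that left 1 library out (adjusted p up to 0.0315, 0.0457 and 0.0707). Without the trend or with the line fitted alone, these calls of *SAP30*, *SIN3A* and *SIN3B* were lost as well. So were those of *KAT2A* in both lines and *WDR5* in MCF10A (adjusted p = 0.0106 to 0.0434 over all of them). The call of *WDR5* in MCF10A was also lost with quantile normalization (adjusted p = 0.0101). That of *SIN3A* in DCIS.COM was lost with *RN7SL1* and *RN7SL2* left out of the scaling (adjusted p = 0.0113). Between the lines, *RUVBL1* (log2 1.12), *ZBTB17*, which encodes the MYC partner MIZ1 (log2 0.87), *KAT2A* (log2 0.83), *HDAC3* (log2 0.74) and *RUVBL2*, the partner helicase of *RUVBL1* (log2 0.59, adjusted p = 2.07e-08), were higher in DCIS.COM with the empty vector.

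Of 9 partners of *MGA* in its polycomb complex, 4 rose in MCF10A and 1 in DCIS.COM (44.4% and 11.1%, beside 21.5% and 16.4% of all genes), and 0 fell in either line. *E2F6* went from 14.6 ± 0.35 to 20.3 ± 1.6 CPM in MCF10A (log2 0.47, adjusted p = 0.000439, and 0.0104 without the trend and 0.0140 with the line fitted alone) and was higher in DCIS.COM with the empty vector by log2 1.13 (adjusted p = 3.92e-08). *L3MBTL2* rose in DCIS.COM by log2 0.32 (adjusted p = 0.000542, and 0.0150 with the line fitted alone), while its rise in MCF10A (log2 0.21) was lost in 6 of the 8 fits that left 1 library out (adjusted p up to 0.0514) and that of *RNF2* (log2 0.30) in 3 of them (adjusted p up to 0.0526). Both rises in MCF10A were also lost without the trend, with the line fitted alone and with *RN7SL1* and *RN7SL2* left out of the scaling (adjusted p = 0.0108 to 0.0271), and that of *L3MBTL2* with quantile or median-of-ratios scaling (adjusted p = 0.0345 and 0.0150). With the empty vector 3 of the 9 partners were higher in DCIS.COM and 2 lower (33.3% and 22.2%, beside 37.9% and 36.0% of all genes), with log2 fold changes from -0.36 to 1.13, beside 4.66 for *MGA* itself. *RYBP* stood at log2 0.45 (adjusted p = 3.95e-06). *YAF2*, its paralog, stood at -0.36 (adjusted p = 0.00113), a call lost without MCF10A pLOC-empty replicate 1 or DCIS.COM pLOC-empty replicate 2 (log2 -0.34 and -0.31). That call was also lost with *RN7SL1* and *RN7SL2* left out of the scaling (adjusted p = 0.0108). With the replicate block, which estimates the difference between the lines at replicate 1, the adjusted p was 0.01045. With *MALINC1* in both lines *PCGF6*, a polycomb RING finger protein, was lower in DCIS.COM (log2 -0.52, adjusted p = 9.74e-05).

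Of 16 genes of MYC turnover, 6 rose and 3 fell in each line (37.5% and 18.8%), where 21.5% and 18.1% of all genes rose and fell in MCF10A and 16.4% and 16.7% in DCIS.COM, so that the share called lower was near that of all genes. *FBXW7*, the ubiquitin ligase subunit that marks MYC for degradation, rose in both, from 28.7 ± 0.14 to 36.2 ± 0.35 CPM in MCF10A (log2 0.34, adjusted p = 0.000114) and from 36.6 ± 1.7 to 53.4 ± 0.87 in DCIS.COM (log2 0.54, adjusted p = 2.35e-06). *SKP2*, another ligase subunit, rose by log2 0.33 in MCF10A and 0.34 in DCIS.COM (adjusted p = 0.000158 and 0.000149). *USP36*, a deubiquitinase, rose by log2 0.32 in MCF10A and 0.53 in DCIS.COM (adjusted p = 0.00317 and 8.09e-05). *AXIN1*, a scaffold of MYC degradation, rose by log2 0.32 in MCF10A and 0.31 in DCIS.COM (adjusted p = 0.000815 and 0.00117). Its call in MCF10A was lost without pLOC-empty replicate 1 of that line (log2 0.27) and without the trend (adjusted p = 0.0151). With the line fitted alone, the calls of *SKP2* in MCF10A and *USP36* in DCIS.COM were lost (adjusted p = 0.0124 and 0.0110). *PIM1*, a kinase that phosphorylates MYC, had 3.04 ± 0.12 CPM in DCIS.COM with pLOC-empty and 7.03 ± 0.031 with pLOC-*MALINC1* (log2 1.19, adjusted p = 7.82e-08). The former was far below the 38.2 ± 0.19 CPM of MCF10A with pLOC-empty (log2 -3.62, adjusted p = 2.27e-13). In MCF10A *PIM1* rose to 46.9 ± 0.84 CPM with pLOC-*MALINC1* (log2 0.30, adjusted p = 0.00457). *PPP2R5A*, a subunit of the phosphatase that acts on MYC, was higher in DCIS.COM by log2 1.10 with the empty vector and 1.31 with *MALINC1*. *PLK1*, a mitotic kinase, was lower in DCIS.COM with *MALINC1* (130.5 ± 4.3 CPM in MCF10A and 75.4 ± 3.1 in DCIS.COM, log2 -0.79, adjusted p = 3.82e-09).

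The genes whose pattern was most like that of *MYC* were ranked by Pearson's r of log2 CPM over the 8 libraries among 10741 genes with a mean of at least 5 CPM. *NOLC1*, a nucleolar protein of the ribosome biogenesis list, came first (r = 0.998), with 136, 237, 159 and 188 CPM in the group means of MCF10A and DCIS.COM, each with pLOC-empty and then pLOC-*MALINC1*. *WAC-AS1*, *REXO4*, *FABP5* and *POLR2D* followed (r = 0.993, 0.992, 0.992 and 0.9895), and each of these 5 genes had the group order of *MYC*. For *MGA*, the member with the widest range, *TRPS1*, *UNC5C*, *ITGBL1*, *CAPS* and *SDF4* came first (r from 0.9987 to 0.9993), all of them higher in DCIS.COM. *UNC5C* had 0.495 and 0.206 CPM in the MCF10A groups and 89.5 and 101 in those of DCIS.COM. The 8 points share 4 groups of 2 libraries, so each r describes a pattern over 4 conditions.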

How the data were processed

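RNA was sequenced as paired-end reads in 8 libraries, 2 in each of 4 groups. The authors used Rsubread for alignment to hg19, featureCounts for counting on UCSC gene models and edgeR for normalization, and the deposited values are log2 CPM. The versions, the strand setting of the counting and the filter on low values are not given in the sources used here. Without strand, reads of a gene and of an antisense partner cannot be told apart. Of the 9 members, 7 have an annotated gene on the opposite strand, for *MAX* and *MXD3* one that is itself in the table. Whole reads were recovered from the deposited values for every gene with a prior count of 2 scaled to library size (tolerance 0.05), and CPM are these reads over the scaled library size.

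limma 3.58.1 under R 4.3.3 was run on the log2 CPM (a mean per group, eBayes with trend and Benjamini-Hochberg adjustment), with contrasts within each line, between the lines under each vector and for the difference of the responses. The minimum of 0.5 CPM in 2 libraries removed none of the 13842 genes, and calls used an adjusted p below 0.01, with more than 2-fold named where used. The script was tested on simulated data. Python 3.11.15 with pandas 2.3.3 and numpy 2.4.6 gave the tables and matplotlib 3.10.9 the plots. Gene positions and lengths are those of GENCODE on GRCh37 and promoters those of RefSeq on GRCh38.p14. The members and lists were chosen with earlier results of these data known. The text names the members in every library, *MALINC1*, *MYCN*, *MLX*, *MLXIP*, *PVT1*, *TXNIP* and *ARRDC4*, up to 3 called genes per list and comparison with the largest fold change and at least 5 CPM in the higher group, and the 5 genes most like *MYC* and *MGA* in pattern. Genes named outside this rule, such as *UBTF*, *NPM1*, *ENO1* and *PKM* and the neighbours of *MGA*, were chosen after their values had been seen, and 1 gene that the rule selects is not reported here. Alternatives changed the test (limma-voom on the reads), the scaling, the pseudocount, the filter, the model and the threshold, and left out each library in turn.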

Additional observations from a re-analysis of the deposited data

Results flagged for a closer look

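For 29 of the genes described, the direct test of the difference between the lines passed the threshold, that is, the log2 fold change with *MALINC1* in DCIS.COM minus that in MCF10A had an adjusted p below 0.01 in limma. Among the network members the difference was -0.82 for *MYC*, -1.48 for *MXD1*, -0.88 for *MXI1*, 1.16 for *MXD3*, 0.56 for *MXD4* and 0.96 for *MGA*. *MXD1* rose in MCF10A and fell in DCIS.COM in each library of its groups. *MLX* and *TXNIP* of the neighbouring branch had differences of -0.64 and 0.30. Without the trend of the limma fit, the calls of *TXNIP*, *HCFC1*, *TRRAP*, *SUDS3* and *CEBPA* were lost (adjusted p = 0.0135, 0.01005, 0.0216, 0.0167 and 0.0153).

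Among the cofactors, the difference was 0.55 for *HCFC1*, -0.54 for *RUVBL1*, 0.33 for *TRRAP*, -0.30 for *SUDS3* and 0.29 for *RBBP4*. *RING1* of the *MGA* complex stood at 0.33, and its call was lost in all 8 fits that left 1 library out (log2 0.30 to 0.35, adjusted p = 0.0123 to 0.0261) and with the replicate block (adjusted p = 0.0118). That of *TRRAP* was lost in 5 of them (log2 0.28 to 0.35, adjusted p = 0.0118 to 0.0187). Among the genes of MYC turnover, it was 0.89 for *PIM1*, 0.67 for *HUWE1* and -0.51 for *AURKA*.

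Among the targets, *LYAR* and *NOP16* stood at -0.88 and -0.80 and *UTP20* at 0.82, *HK2* and *TFRC* at -1.48 and -1.05 and *SHMT1* at 0.89, and *E2F1*, *E2F2* and *MCM5* at 1.10, 0.97 and 0.89. *THBS1*, which rose in MCF10A and fell in DCIS.COM, had the largest difference of the named genes at -2.54. *NDRG2* and *CEBPA* stood at -2.46 and -1.68 and were below 1 CPM in both MCF10A groups. The call of *CEBPA* was lost without any one of the 4 DCIS.COM libraries (log2 -1.64 to -1.72, adjusted p = 0.0121 to 0.0155) and with pseudocounts of 0.5 and 1 CPM (log2 -0.34 and -0.14), and that of *NDRG2* with a pseudocount of 1 CPM (log2 -0.46, adjusted p = 0.0272).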

How the results depend on the processing

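The counts of called genes were computed again under other tests, scalings, pseudocounts, filters and thresholds and with each library left out in turn, for the network members and for the MYC pathway lists together. Of 194 such counts 190 stayed within 1.5 times the value reported. Each count adds higher and lower calls, so it does not show a shift between them. For the lists between the lines with *MALINC1*, 67 higher and 50 lower became 90 and 30 without *RN7SL1*, *RN7SL2* and the normalization factors in the scaling, which counts as unchanged. With DCIS.COM fitted alone, 3 members were called for *MALINC1* in that line instead of 5 and 53 genes of the lists instead of 89. Without the trend, 55 genes of the lists were called for *MALINC1* in DCIS.COM and 57 instead of 88 for the difference between the lines. With 1 library left out, the number of members called was 5 to 6 for *MALINC1* in MCF10A, 5 in DCIS.COM, 6 and 7 to 8 between the lines with the empty vector and with *MALINC1* and 5 to 6 for the difference. For the lists it was 93 to 111, 64 to 86, 105 to 116, 108 to 117 and 72 to 88, and the remaining library of the group was assumed to vary like the others. Over 193 fold changes of single genes, 3604 of 3744 values under the alternatives kept the direction and the side of the threshold where one was called, 111 lost the call and 29 gained it. No called fold change turned its direction, and 49 values of fold changes that were not called changed sign. With the replicate block, that is, the number of the titles as a factor within each line, 6, 6, 6, 7 and 6 members were called in the 5 comparisons and 111, 82, 108, 109 and 87 genes of the lists, and *MYCL* in DCIS.COM passed the threshold (adjusted p = 0.00774). In that fit the comparisons between the lines are estimated at replicate 1 and not at the mean of the replicates, so their counts concern another quantity. Libraries of the same number did not deviate together over all genes (correlations from -0.067 to 0.038). This does not show whether libraries of the same number were prepared together. The deposited log2 CPM hold a pseudocount, so the changes of low genes, *MGA* in MCF10A and *MYCL* in DCIS.COM above all, are understated, and their 15 to 44 reads per library limit their precision.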
